A study of Naumovozyma castellii with 24 samples.

Results

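The double deletion of ROX1 and ROX2 (rox1/rox2-/-) was compared with the deletion of ROX1 alone (rox1-/-), both grown with CoCl2, in the budding yeast Naumovozyma castellii. The comparison rests on 4 of the 24 RNA-seq libraries of the series, chosen by their labels as 2 biological replicates of each strain. Both strains have the DBP004 background and lack ROX1, so the labelled difference between them is ROX2; how many clones each strain represents was not given in the sources used here. All cultures grew in YPD at 21% oxygen to an A600 of 1, and then for 2 h with 0.6 mM CoCl2 or without it. Other groups of the same experiment served as a frame: wild type (WT) with CoCl2 (2 libraries), and rox1/rox2-/- (2), rox1-/- (2) and WT (3) without CoCl2. The rox2-/- strain with CoCl2 (2) and without it (3) completed the fit of 18 libraries. The question was whether losing ROX2 changes the response of the ROX1 deletion to cobalt.

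In Saccharomyces cerevisiae, Rox1 is a DNA-binding repressor that is made when haem and oxygen are plentiful and keeps hypoxic genes silent in air. Cobalt chloride is widely used to mimic low oxygen, and in fungi it interferes with sterol synthesis and iron-dependent enzymes. Budding yeasts store glucose as glycogen and trehalose when growth slows, and they make fewer ribosomes at such times. Gene roles given below are those known in S. cerevisiae; genes with only a systematic N. castellii ID are given no role.

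The 4 libraries held 8073791 and 6241839 gene counts for rox1/rox2-/- with CoCl2, and 9512143 and 11192156 for rox1-/- with CoCl2. Reads with several matches came to 21.7 and 27.3 per 100 gene counts in the double deletion, against 42.8 and 37.7 in rox1-/-, and the part of this gap in the results was not tested. The libraries did not separate cleanly by strain: replicate 2 of the double deletion correlated more with replicate 1 of rox1-/- (Pearson r = 0.973 across genes) than with its own replicate 1 (r = 0.958). Replicate 1 of the double deletion correlated most with a WT library with CoCl2 (r = 0.963). Ribosomal protein genes took 5.8% and 8.59% of gene counts in the double deletion with CoCl2, against 8.69% and 12.04% in rox1-/- with CoCl2, and 13.23% to 22.84% in the libraries without CoCl2. In all 4 strains this share was lower in replicate 1 with CoCl2 than in replicate 2. Replicates of the double deletion with CoCl2 differed by a median of 0.29 on the log2 scale over genes, those of rox1-/- with CoCl2 by 0.20.

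The deleted loci were checked first. ROX1 had 0 counts in all libraries of both strains with CoCl2, against 35.1 and 32.6 CPM in WT with CoCl2. CPM are read counts scaled to a common library size after TMM scaling and are not corrected for gene length, so levels are compared between libraries only. A count of 0 allows up to 0.171 CPM over the double deletion group and 0.144 CPM over the rox1-/- group. The deposited tables do not name a ROX2 gene. NCAS0E02010 had 0 counts in both double deletion libraries, against 44 and 27 counts, or 4.53 and 2.42 CPM, in rox1-/- with CoCl2, at least 19.9-fold lower against a floor of 3 counts over the group. It was the 1 gene at 0 in every library of the ROX2-deleted strains and counted in every other library. Beside the ROX1 locus, NCAS0A11110 had 70.7 and 126 CPM in the double deletion with CoCl2 and 80.9 and 35.1 CPM in rox1-/- with CoCl2, with overlapping groups and an adjusted p of 0.179. Without CoCl2 it had 33 and 49.5 CPM in the double deletion, against 7.51 and 8.98 CPM in rox1-/- (log2 2.31, adjusted p = 0.0353). The gene on the other side of ROX1, NCAS0A11130 (log2 0.27, adjusted p = 0.582), and the neighbours of NCAS0E02010, MRPS5 (0.68, adjusted p = 0.0668) and BIM1 (0.14, adjusted p = 0.516), were not called with CoCl2.

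With CoCl2, 164 genes rose and 80 fell in the double deletion relative to rox1-/-, out of 5544 tested (4.4% called, 2.96% rising and 1.44% falling; edgeR quasi-likelihood test, Benjamini-Hochberg adjusted p under 0.05). Both double deletion libraries lay above both rox1-/- libraries for 30.1% of all genes and below both for 31.9%. The change was at least 2-fold for 123 of the rising and 49 of the falling genes. Rising genes included enzymes of glycogen and trehalose metabolism and glucose phosphorylation, chaperones, autophagy proteins and respiratory subunits, and falling genes included LEU1, LEU2, LEU9, ILV3 and LYS4 of amino acid synthesis. These calls rest on individual libraries. Without replicate 1 of the double deletion 0 genes were called (543 at an unadjusted p under 0.05), and without replicate 2 of rox1-/- 13 were called, 7 of them among the 244. Without replicate 2 of the double deletion 1220 were called, without replicate 1 of rox1-/- 288, and a fit of the 4 libraries alone called 0 (1125 at an unadjusted p under 0.05; DESeq2 on all libraries called 947). All 244 genes kept their direction in each of the 4 fits that left out a library.

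**Figure D1:**
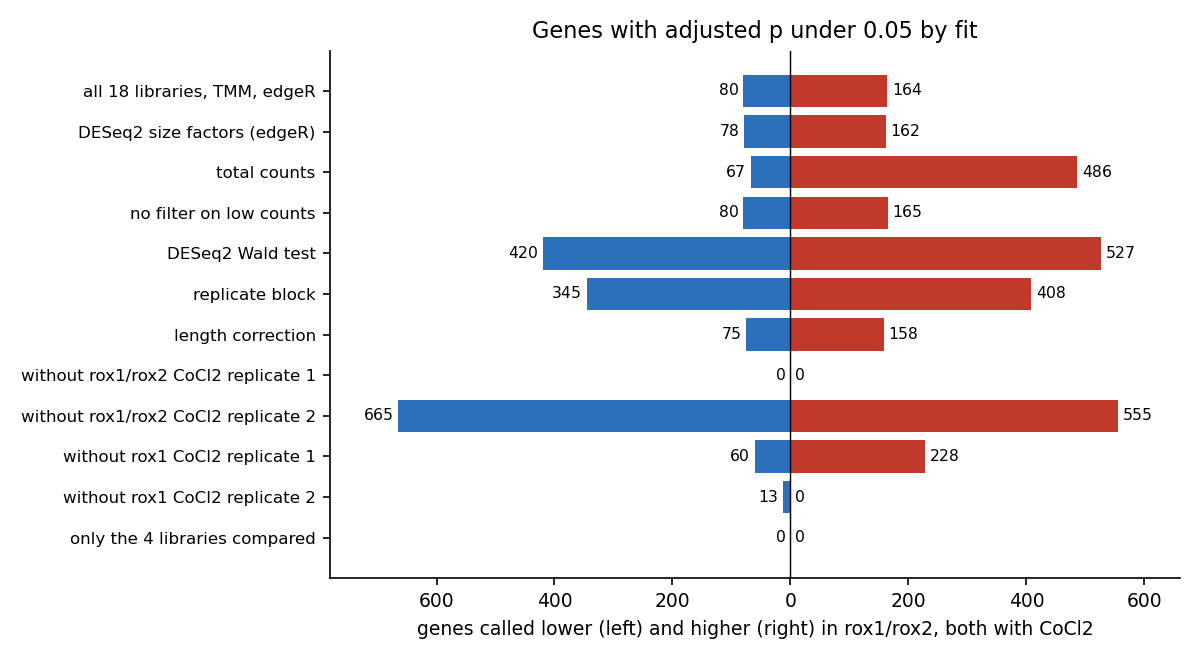
Genes called lower (bars to the left) and higher (bars to the right) in rox1/rox2-/- than in rox1-/-, both with CoCl2, under each fit, with the number of genes at the bar end. The main fit called 164 higher and 80 lower, and the count ran between 0 and 1220 when 1 library was left out.

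Reserve carbohydrate genes had the highest share of calls of the 31 lists. Of 16 tested genes of glycogen, trehalose and glycerol metabolism, 9 rose (56.2%, against 2.96% of all genes) and 0 fell. The list median was 1.5 on the log2 scale against 0 over all genes. GSY1, a glycogen synthase, had 153 and 43.6 CPM in the double deletion with CoCl2, against 7.62 and 7.81 CPM in rox1-/- with CoCl2. Both double deletion libraries were above both rox1-/- libraries, replicate 1 by far the higher, and the fold change was 12.8 (log2 3.68, SE 0.746, adjusted p = 0.0329). GLG1, which primes new glycogen chains, had 159 and 31 CPM in the double deletion, against 13.9 and 16.3 CPM in rox1-/- (log2 2.66, SE 0.572, adjusted p = 0.037). GLC3, the branching enzyme, had 469.8 and 213 CPM in the double deletion, against 66.6 and 68.8 CPM in rox1-/- (log2 2.33, SE 0.412, adjusted p = 0.0252). The groups of these genes did not overlap. PGM2, the phosphoglucomutase that supplies glucose 1-phosphate, had 524 and 258 CPM in the double deletion, against 64.9 and 6.91 CPM in rox1-/- (log2 3.45, SE 0.836, adjusted p = 0.0413). Here the 2 rox1-/- libraries lay about as far apart as the strains did.

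The trehalose synthase complex followed. TSL1, its regulatory subunit, had 586 and 397 CPM in the double deletion, against 219 and 142 CPM in rox1-/- (log2 1.45, SE 0.28, adjusted p = 0.0308). TPS1, the synthase, rose by 1.61 on the log2 scale (adjusted p = 0.0413) and TPS2, the phosphatase, by 1.55 (adjusted p = 0.0413). The remaining risers were GSY2, a second glycogen synthase (1.85), and GPH1, glycogen phosphorylase (2.05), enzymes of glycogen synthesis and of its breakdown. The 7 members that did not pass included GAC1, a phosphatase subunit that activates glycogen synthase (log2 1.46, adjusted p = 0.0733), and the glycerol phosphatase GPP2 (-0.85, adjusted p = 0.0846). The list had 9 risers without replicate 1 of rox1-/-, 11 without replicate 2 of the double deletion, and 0 without either of the remaining libraries, while its median stayed between 1.04 and 2.11.

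**Figure D2:**
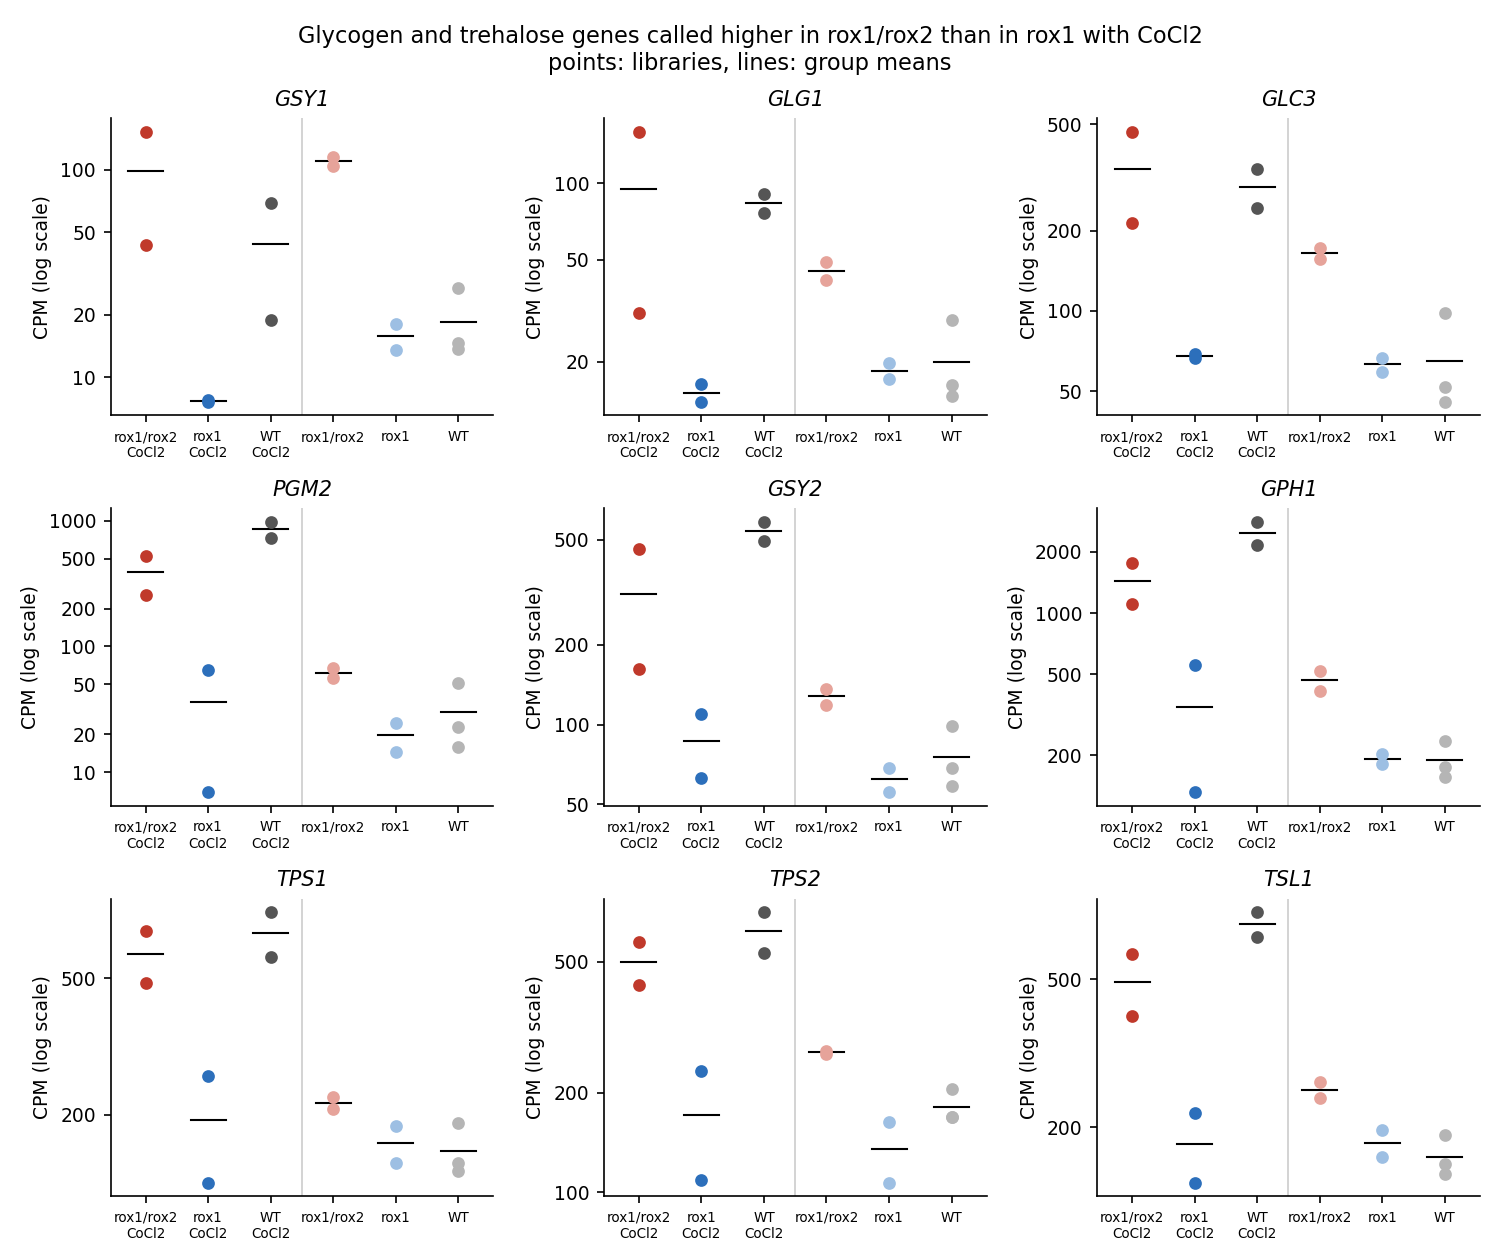
Level in CPM (log axis) of the 9 reserve carbohydrate genes that rose, in each library of rox1/rox2-/-, rox1-/- and WT, with CoCl2 (left of the grey line) and without it (right); points are libraries and lines are group means. With CoCl2 both rox1/rox2-/- libraries lie above both rox1-/- libraries in every panel, as for GSY1 at 153 and 43.6 CPM against 7.62 and 7.81 CPM.

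Enzymes that phosphorylate glucose rose beside them. GLK1, glucokinase, had 2701 and 1036 CPM in the double deletion with CoCl2, against 228 and 76.2 CPM in rox1-/- with CoCl2, a 12.3-fold difference (log2 3.62, SE 0.719, adjusted p = 0.0328). EMI2, a glucokinase relative, had 417 and 177 CPM in the double deletion, against 63.9 and 39 CPM in rox1-/- (log2 2.53, SE 0.425, adjusted p = 0.0203). HXK2, the main hexokinase on glucose, had 854 and 532 CPM in the double deletion, against 286 and 293 CPM in rox1-/- (log2 1.26, SE 0.275, adjusted p = 0.0376). None of these groups overlapped. Beyond GLK1 and HXK2, the glycolysis and fermentation list of 18 had 1 more riser, the cytosolic acetaldehyde dehydrogenase ALD6 (log2 1.04, SE 0.212, adjusted p = 0.0329). Together they were 16.7% of that list, against 2.96% of all genes, and its median was 0.19. In the list of gluconeogenesis and acetate use, acetyl-CoA synthetase ACS1 (log2 2.10) and acetyl-CoA hydrolase ACH1 (2.00) rose, and the carnitine acetyltransferase YAT2 fell (-0.71), out of 19. These calls were 15.8% of the list, against 4.4% of all genes.

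The respiratory genes that rose did so by smaller amounts. Of 36 subunits of the respiratory chain and ATP synthase, 8 rose (22.2%, against 2.96% of all genes) and 0 fell. A positive log2 difference was seen in 35, and the median was 0.76. COX12, a cytochrome c oxidase subunit, had 76 and 60.7 CPM in the double deletion with CoCl2, against 35.8 and 20.6 CPM in rox1-/- with CoCl2 (log2 1.28, SE 0.264, adjusted p = 0.0329). ATP18, a subunit of the ATP synthase membrane part, had 41.3 and 45.3 CPM in the double deletion, against 23.1 and 12 CPM in rox1-/- (log2 1.31, SE 0.298, adjusted p = 0.0402). ATP16, a subunit of its central stalk, had 88.4 and 61.1 CPM in the double deletion, against 33.8 and 23.6 CPM in rox1-/- (log2 1.38, SE 0.333, adjusted p = 0.0413). In all 3 the double deletion libraries were above both rox1-/- libraries. CYC7, COX9, ATP3, ATP7 and ATP15 completed the 8. In the TCA cycle list, LSC1 (1.94) and LSC2 (1.90), the subunits of succinyl-CoA ligase, rose among 17 genes (11.8%) with a median of 0.61. Of 75 mitochondrial ribosomal protein genes 1 rose (1.33%, against 2.96% of all genes), and their median was 0.29. The 8 respiratory risers became 18 without replicate 2 of the double deletion, 15 without replicate 1 of rox1-/- and 0 without either of the others.

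Chaperone, stress and autophagy lists each had risers and no fallers. Of 34 heat shock and chaperone genes 5 rose (14.7%, against 2.96% of all genes), with a list median of 0.28. A positive difference was seen in 22 of the 34 and a negative one in 12, down to -1.34. HSP26, a small heat shock protein, had 260.4 and 103 CPM in the double deletion with CoCl2, against 43 and 6.64 CPM in rox1-/- with CoCl2 (log2 2.88, SE 0.763, adjusted p = 0.0478). HSP42, another small heat shock protein, had 430.2 and 197 CPM in the double deletion, against 109 and 45.7 CPM in rox1-/- (log2 2.02, SE 0.441, adjusted p = 0.0376). HSP104, the disaggregase, rose by 1.61, SSE2, an Hsp110 exchange factor, by 1.31, and STI1, an Hsp90 co-chaperone, by 0.96. All 5 are genes that S. cerevisiae raises in heat or in stationary phase. Of 35 autophagy genes 5 rose (14.3%) and 33 had a positive difference, with a median of 0.45. ATG8, the protein conjugated to autophagosome membranes, had 88.8 and 62.3 CPM in the double deletion, against 24.1 and 21.5 CPM in rox1-/- (log2 1.73, SE 0.292, adjusted p = 0.0203). ATG33, which acts in mitophagy, rose by 1.52, ATG38, a subunit of a lipid kinase complex, by 1.19, ATG1, the initiating kinase, by 1.73, and ATG16, part of the ATG8 conjugation machinery, by 0.85. Of 26 stationary phase and stress genes, the nicotinamidase gene PNC1 (1.40), the glutathione transferase gene ECM4 (2.01) and SDS24 (1.78) rose. They were 11.5% of the list, whose median was 1.02. None of these 13 risers was called without replicate 1 of the double deletion or without replicate 2 of rox1-/-.

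Some amino acid synthesis genes fell. Of 68 amino acid synthesis genes 5 fell (7.35%, against 1.44% of all genes) and 0 rose. The list median was -0.35, or -0.09 when libraries were scaled by total counts. LEU1, isopropylmalate isomerase, had 56.8 and 74.7 CPM in the double deletion with CoCl2, against 284 and 645 CPM in rox1-/- with CoCl2 (log2 -2.82, SE 0.532, adjusted p = 0.0294). LYS4, homoaconitase, had 62.4 and 67 CPM in the double deletion, against 248 and 157 CPM in rox1-/- (log2 -1.65, SE 0.233), and its adjusted p of 0.0104 was the lowest of all genes, shared with 2 others, PTK2 and TUB3. LEU9, an isopropylmalate synthase, had 243 and 273 CPM in the double deletion, against 414 and 919 CPM in rox1-/- (log2 -1.37, SE 0.281, adjusted p = 0.0329). The other fallers were LEU2, isopropylmalate dehydrogenase (-1.39), and ILV3, dihydroxyacid dehydratase (-1.34). LEU1, LYS4 and ILV3 encode enzymes with an iron-sulfur cluster. For the leucine genes the lower double deletion level sat beside a wide spread in rox1-/-, whose replicate 2 held more than its replicate 1. LYS4 stayed called without replicate 2 of rox1-/- and lost its call without replicate 1 of the double deletion. With 1 of the 4 libraries left out, its log2 difference ran between -1.94 and -1.28, and the list median between -0.53 and -0.19.

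MAE1, the mitochondrial malic enzyme, had 37.7 and 71.4 CPM in the double deletion with CoCl2, against 291 and 355 CPM in rox1-/- with CoCl2 (log2 -2.57, SE 0.409, adjusted p = 0.0197). REA1, an AAA protein that remodels precursors of the large ribosomal subunit, had 238 and 516 CPM in the double deletion, against 1483 and 1717 CPM in rox1-/- (log2 -2.09, SE 0.427, adjusted p = 0.0329). Both genes had groups that did not overlap. REA1 and DBP2, an RNA helicase (-1.44, adjusted p = 0.0402), were the 2 called among 130 ribosome biogenesis genes. They were 1.54% of the list, near the 1.44% of all genes that fell. Even so, all 130 had a negative log2 difference and the median was -1.17. Without CoCl2, 124 of the 130 were also negative between the same strains, with a median of -0.64 and 0 called. Summed over the list, the level was 12125 and 31517 CPM in the double deletion with CoCl2, against 52252 and 58654 CPM in rox1-/- with CoCl2. The double deletion libraries differed from each other by more than the rox1-/- libraries did, and the number of fallers was 122 without its replicate 2 and 0 without its replicate 1. The 107 cytosolic ribosomal protein genes had 0 calls by edgeR (29 at an unadjusted p under 0.05; DESeq2 called 9 lower) and a median of -0.73, with 1 positive difference. With CoCl2 the ribosome biogenesis list also parted the replicates of each strain except rox1-/-. Relative to the same strain without CoCl2 its median was -1.27 in replicate 1 and 0.07 in replicate 2 of the double deletion. It was -1.57 and -0.30 in WT, -1.7 and -0.4 in rox2-/-, and 0.09 and 0.20 in rox1-/-.

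In the mating list 4 of 29 genes fell: the MAP kinase gene FUS3 (log2 -1.04, SE 0.197, adjusted p = 0.0294), the pheromone exporter gene STE6 (-0.98, SE 0.197, adjusted p = 0.0329), the agglutinin gene SAG1 (-0.88, SE 0.202, adjusted p = 0.0402) and the G protein subunit gene STE4 (-1.17, adjusted p = 0.0413). FUS3 had 39 and 46 CPM in the double deletion with CoCl2, against 90.4 and 83.7 CPM in rox1-/- with CoCl2. STE6 had 65.5 and 66.4 CPM in the double deletion, against 125 and 134 CPM in rox1-/-. The replicates of both genes lay close together and the groups were apart. The 4 fallers were 13.8% of the mating list, against 1.44% of all genes. The list median was -0.24 and turned to 0.04 with scaling by total counts, which moved the median of all genes by 0.267. KNH1, a gene of cell wall glucan synthesis, had 13.9 and 7.46 CPM in the double deletion, against 58.9 and 20.4 CPM in rox1-/- (log2 -1.86, SE 0.426, adjusted p = 0.0402). KNH1 stayed called without replicate 2 of either strain, and lost its call without replicate 1 of the double deletion (adjusted p = 0.376) and without replicate 1 of rox1-/- (log2 -0.91, adjusted p = 0.147).

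Several of the largest changes were in genes with no name. NCAS0B08610 had 92.4 and 19.2 CPM in the double deletion with CoCl2, against 5.46 and 7.81 CPM in rox1-/- with CoCl2 (log2 3.08, SE 0.592, adjusted p = 0.0303). NCAS0G04260 had 9.48 and 10.3 CPM in the double deletion, against 65.4 and 126 CPM in rox1-/- (log2 -3.27, SE 0.585, adjusted p = 0.0262). NCAS0H03380 had 14.3 and 19.2 CPM in the double deletion, against 91.6 and 174 CPM in rox1-/- (log2 -2.99, SE 0.557, adjusted p = 0.0294). In each of them the groups were apart. The 12 largest rises also held KIN1, a kinase of the exocytic pathway (2.49), NCAS0C05980 (2.86), NCAS0G03920 (2.30) and NCAS0J00120 (2.28). The 12 largest falls also held NCAS0H03660 (-2.54), NCAS0H01880 (-2.35), NCAS0E03170 (-2.30), NCAS0D00350 (-1.91), NCAS0C05660 (-1.91) and NCAS0A10010 (-1.76). Reads with several matches were not part of the gene counts, so genes with near-identical copies elsewhere in the genome could be undercounted. These IDs were not screened for copies here.

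Genes of the hypoxic list, not all of them hypoxic genes or targets of Rox1 in S. cerevisiae, were mostly not called between the strains. Of 23 tested, 2 rose and 0 fell (8.7% called, against 4.4% of all genes), and the median was -0.09, or 0.17 with scaling by total counts. CYC7, the hypoxic isoform of cytochrome c, had 138 and 102 CPM in the double deletion with CoCl2, against 56.6 and 25 CPM in rox1-/- with CoCl2 (log2 1.56, SE 0.387, adjusted p = 0.0419). NCE102, a membrane domain protein, had 30 and 22.1 CPM in the double deletion, against 6.28 and 2.24 CPM in rox1-/- (log2 2.63, SE 0.675, adjusted p = 0.0457). OLE1, HEM13, ANB1 and ERG11 were not called. OLE1, the fatty acid desaturase, had 7617 and 7947 CPM in the double deletion, against 8173 and 8169.6 CPM in rox1-/-. HEM13, an oxygen-requiring enzyme of haem synthesis, had 363 and 283 CPM in the double deletion, against 241 and 206 CPM in rox1-/- (log2 0.53, adjusted p = 0.133). ANB1, the hypoxic translation factor gene, had 103 and 179 CPM in the double deletion, against 235 and 243 CPM in rox1-/- (log2 -0.76, adjusted p = 0.138). ERG11, a haem-containing enzyme of sterol synthesis, had 1061 and 1215 CPM in the double deletion, against 1482 and 1347 CPM in rox1-/- (log2 -0.31, adjusted p = 0.262). Of the other members, log2 differences ran between -0.89 for the sterol importer AUS1 (adjusted p = 0.0625) and 0.82 for the oxidase subunit COX5B (adjusted p = 0.0913). HEM14, NCP1, SML1, SCM4, OSM1, AAC3, TIR3, PDR11, CPR1, FET4, ARE1, ERG25, EUG1 and HYP2 lay between these.

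Of 18 regulators of respiration, sterols, metals and repression, 0 were called by edgeR (5 at an unadjusted p under 0.05), while DESeq2 called 2 higher and 2 lower. Their median was -0.19, or 0.03 with scaling by total counts. HAP4, the activating subunit of the respiratory gene regulator, had 26.6 and 9.47 CPM in the double deletion with CoCl2, against 126 and 19.5 CPM in rox1-/- with CoCl2 (log2 -1.99, SE 0.642, adjusted p = 0.0762). The difference of HAP4 ran between -2.94 and -0.09 when 1 library was left out. HAP3 (1.05, adjusted p = 0.0693) and HAP5 (1.01, adjusted p = 0.0589), DNA-binding subunits of the same complex, had positive values. UPC2 (-0.50) and ECM22 (-0.42), the sterol regulators, had negative ones. The remaining regulators, HAP1, HAP2, SUT1, MOT3, MGA2, IXR1, TUP1, RPD3, HDA1, YAP1, AFT1 and AFT2, lay between -0.32 and 0.45, and ROX1 was at 0 counts in both groups. Among 23 ergosterol genes ERG24 rose (0.55, adjusted p = 0.0457), and the median was 0.15, with a range of -0.02 to 0.28 when 1 library was left out. With CoCl2 relative to the same strain without it, 16 ergosterol genes rose in the double deletion, 18 in rox1-/- and 22 in WT, with list medians of 0.98, 1.31 and 1.71.

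**Figure D3:**
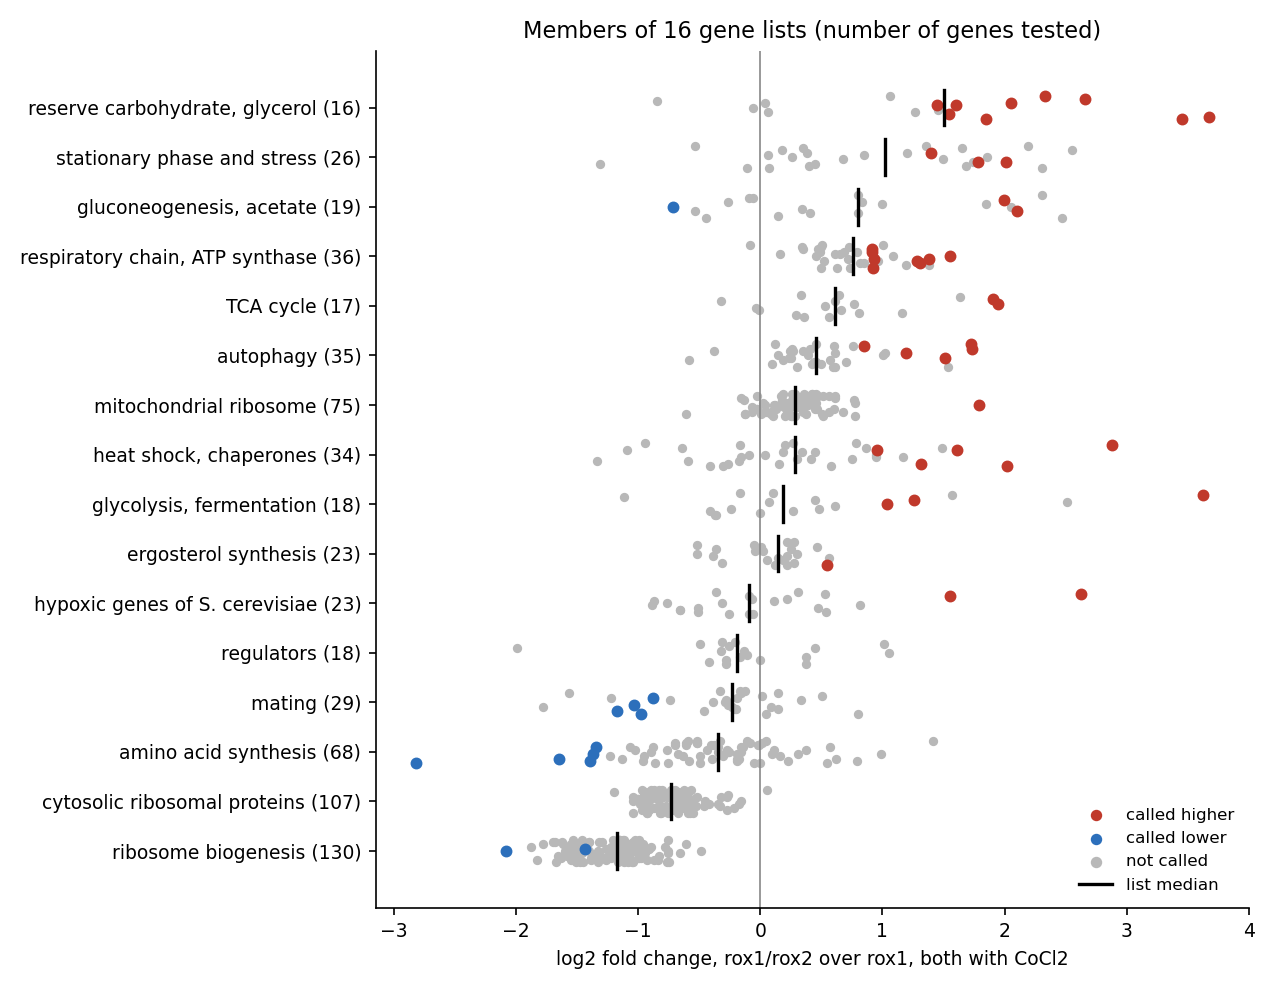
Log2 fold change of rox1/rox2-/- over rox1-/-, both with CoCl2, for each tested member of 16 gene lists, with the number tested in brackets; red and blue points are genes called higher and lower, grey points were not called and the black bar is the list median. Medians run from 1.5 for reserve carbohydrates to -1.17 for ribosome biogenesis, whose 130 members all lie left of 0.

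The strain difference was also measured without CoCl2, in libraries that the comparison with CoCl2 did not use. There, 9 genes rose and 9 fell in the double deletion relative to rox1-/- (0.325% called, 0.162% rising and 0.162% falling; 1148 at an unadjusted p under 0.05). Of the 164 genes that rose with CoCl2, all 164 had a positive log2 difference without CoCl2, with a median of 0.69 against 1.37 with CoCl2. Of the 80 that fell, 76 had a negative one, with a median of -0.65 against -1.08. Both sets were chosen on the libraries with CoCl2, which raises the size of the values with CoCl2. The medians with and without CoCl2 are therefore no measure of a larger strain difference with cobalt. Across all 5544 genes the log2 differences with and without CoCl2 correlated at a Pearson r of 0.68 (Spearman rho 0.66), and 73.6% had the same sign; these are correlations across genes, which are not independent. The genes called in both were COX9, DAP1 and APN1 among the rising and MAE1, NCAS0F02550, NCAS0C04230 and NCAS0E02010 among the falling. GSY1 had 115 and 105 CPM in the double deletion without CoCl2, against 18.1 and 13.6 CPM in rox1-/- without CoCl2 (log2 2.80, adjusted p = 0.0675). MAE1 had 56.5 and 73.1 CPM in the double deletion without CoCl2, against 351 and 269.6 CPM in rox1-/- without CoCl2 (log2 -2.26, adjusted p = 0.0353). LEU1 did not follow this pattern, with 48 and 45 CPM in the double deletion without CoCl2 and 36.3 and 49.1 CPM in rox1-/- without CoCl2. List medians between the strains without CoCl2 were 0.62 for reserve carbohydrate genes (13 of 16 positive) and 0.57 for respiratory genes (33 of 36). They were 0.41 for stationary phase and stress genes (17 of 26) and 0.38 for autophagy genes (29 of 35). Not every list kept its median. Gluconeogenesis and acetate use had 0.05 without CoCl2 against 0.8 with it, and glycolysis and fermentation -0.15 against 0.19. The calls without CoCl2 numbered 506 without replicate 2 of rox1-/- and 0 without replicate 1 of the double deletion.

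**Figure D4:**
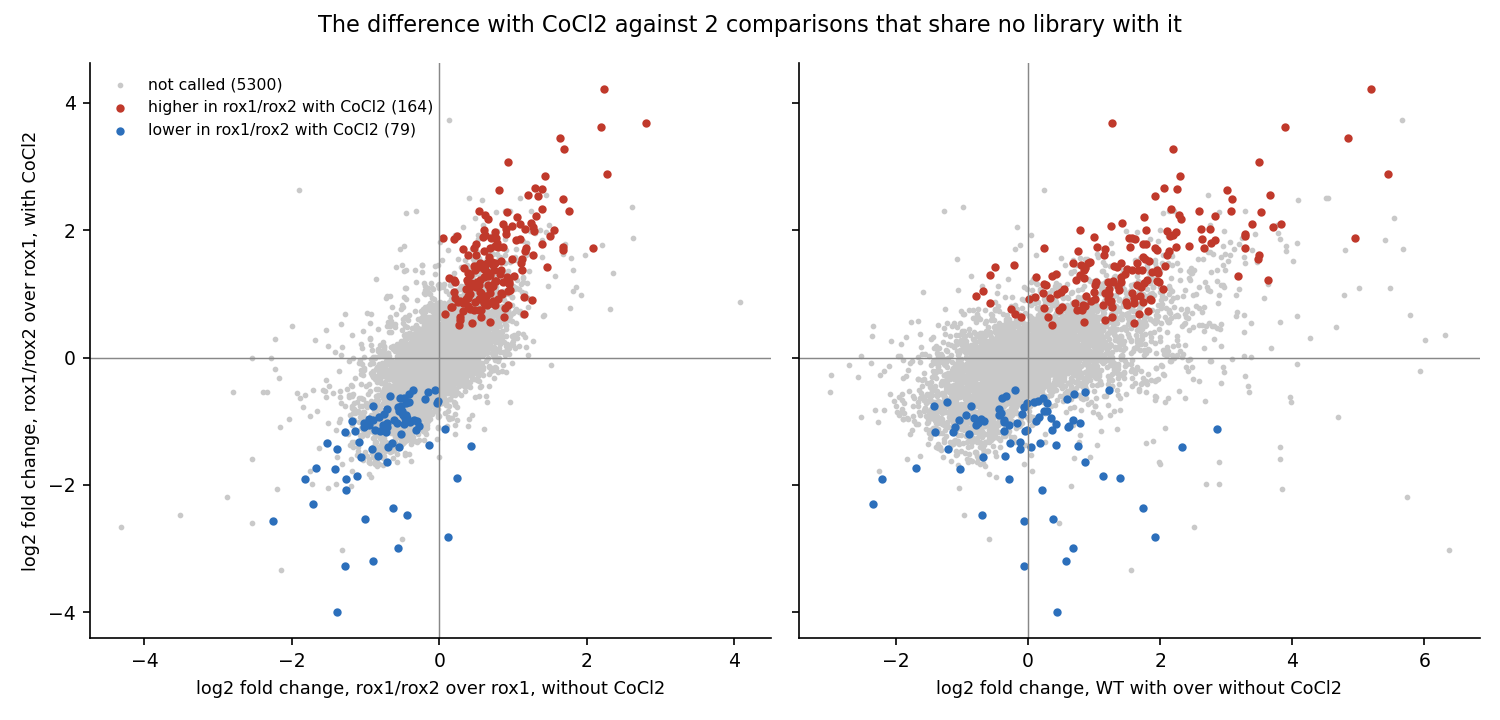
Log2 fold change of rox1/rox2-/- over rox1-/- with CoCl2 (vertical axis of both panels) against the same difference without CoCl2 (left) and against the response of WT to CoCl2 (right), 1 point per gene, with genes called higher in red and lower in blue; NCAS0E02010, at 0 counts in rox1/rox2-/-, lies outside the axes. All 164 red points lie right of 0 in the left panel.

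Whether the cobalt response changed is the difference between the responses of the 2 strains. With CoCl2 relative to the same strain without it, 243 genes rose and 78 fell in the double deletion (5.79% called, 4.38% rising and 1.41% falling), and 269 rose and 178 fell in rox1-/- (8.06% called, 4.85% rising and 3.21% falling). The difference between these responses, tested as an interaction, was called for 0 of 5544 genes (0% called; edgeR, 260 at an unadjusted p under 0.05, lowest adjusted p 0.808), and DESeq2 called 2, ARG3 and NCAS0A15020. For GSY1 the interaction was 0.88 (SE 0.974, adjusted p = 0.819), for GLK1 1.43 (SE 0.922, adjusted p = 0.808) and for PGM2 1.81 (SE 1.1, adjusted p = 0.808). The standard errors of these 3 interactions exceed those of the strain differences of the same genes with CoCl2. The count was 60 without replicate 2 of rox1-/- without CoCl2, and 2, namely LEU2 and NCAS0A15020, without replicate 1 of rox1-/- with CoCl2.

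The genes with the lowest interaction p were not called by edgeR. ARG3, ornithine carbamoyltransferase, had 22.5 and 21.1 CPM in the double deletion and 24.4 and 19.2 CPM in rox1-/- with CoCl2. Without CoCl2 it had 24.9 and 18.2 CPM in the double deletion, against 153 and 98.5 CPM in rox1-/-, so the strains lay apart without cobalt and overlapped with it (interaction log2 2.53, SE 0.504, unadjusted p = 0.000186, adjusted p = 0.808). LEU1 had overlapping levels without CoCl2 and a response of 0.50 in the double deletion (adjusted p = 0.563), against a rise by 3.44 in rox1-/- (adjusted p = 0.00179); its interaction was -2.95 (SE 0.728, adjusted p = 0.808). LEU2 followed LEU1 at -1.82 and NCAS0A15020 had -2.14. NCAS0A14100, MET1 and CNM67 had negative interactions and NCAS0F02540, DSE2 and NCAS0H00690 positive ones, with unadjusted p between 0.000727 and 0.00296.

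Genes that respond to cobalt were taken from WT, whose libraries are in neither strain. In WT, 1533 genes rose and 1074 fell with CoCl2 (47% called, 27.7% rising and 19.4% falling). Of the 1533, 136 rose and 16 fell in the double deletion relative to rox1-/- with CoCl2, 76.3% had a positive difference, and the median was 0.35 against 0 over all genes. Of the 1074, 4 rose and 20 fell, and the median was -0.28. The 1533 genes also differed without CoCl2, by a median of 0.22, and their interaction had a median of 0.14 with 64.4% positive, against -0.02 over all genes. The cobalt response itself had a median over the 1533 genes of 0.63 and 0.33 in the 2 double deletion libraries, 0.45 and 0.21 in those of rox1-/-, 1.04 and 0.75 in those of rox2-/-, and 1.13 and 0.92 in those of WT. The genes were chosen on the WT libraries, which raises the WT values, so these are no measure of the strains against WT. The double deletion and rox1-/- overlapped, and no test was made of these medians. The double deletion was the higher at each replicate number, but no label says that equal numbers mark a shared culture or day. Leaving out replicate 1 of the double deletion lowered the median strain difference of these genes to 0.19 and their count of risers to 0, and leaving out its replicate 2 gave 0.47 and 434.

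**Figure D5:**
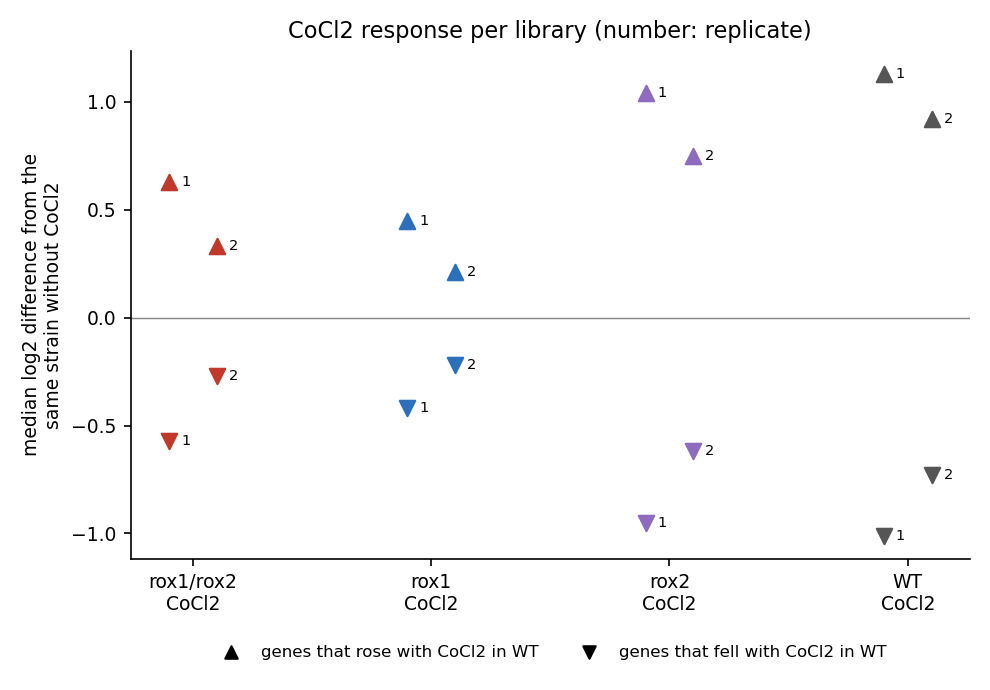
Median log2 difference from the same strain without CoCl2, per library with CoCl2, over the 1533 genes that rose in WT (upward triangles) and the 1074 that fell (downward triangles); numbers are replicates. The 2 rox1/rox2-/- libraries (0.63 and 0.33) overlap those of rox1-/- (0.45 and 0.21), and those of rox2-/- lie at 1.04 and 0.75; the genes were chosen on the WT libraries (1.13 and 0.92), which raises the WT values.

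Set beside WT with CoCl2, the 2 strains gave different counts, from comparisons that share libraries with each other and with the one above. The double deletion had 69 genes higher and 209 lower than WT (5.01% called, 1.24% higher and 3.77% lower), and rox1-/- had 258 higher and 716 lower (17.6% called, 4.65% higher and 12.9% lower). For the 164 genes that rose between the strains, the median log2 difference from WT was 0.01 in the double deletion (4 higher, 2 lower) and -1.38 in rox1-/- (138 lower). For the 80 that fell it was -0.71 in the double deletion (21 lower) and 0.50 in rox1-/- (21 higher, 5 lower). Both sets were chosen on the libraries of these 2 strains, which by itself sets the medians of the strains apart. These values are therefore no measure of either strain against WT. GLK1, KNH1 and NCAS0H01880 were named from the same libraries, so this limit holds for them as well. GLK1 differed from WT by -0.29 on the log2 scale in the double deletion (adjusted p = 0.867) and by -3.91 in rox1-/- (adjusted p = 0.00404), and WT had 2884 and 1689.8 CPM. KNH1 and NCAS0H01880 were lower than WT in both strains, with log2 differences for KNH1 of -3.51 in the double deletion (adjusted p = 0.000541) and -1.65 in rox1-/- (adjusted p = 0.0139). In rox2-/- relative to WT, both with CoCl2, the 164 genes had a median of -0.03, with 6 called higher and 0 lower (3.57% of all genes called, 2.69% higher and 0.884% lower), but that comparison correlated with coding length (Spearman rho -0.74 over genes, against -0.08 for the double deletion relative to rox1-/-).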

How the data were processed

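RNA-seq of 18 cultures was analysed from the raw counts per exon deposited by the authors. TopHat2 and HTSeq 0.6.0 are the tools named in the submitters' processing notes. Which build, annotation and strand option they ran with was not given in the sources used here. According to the labels' protocols, libraries were strand-specific and single-end, and RNA was extracted with 1 of 2 kits, not stated per sample, so kit and strain cannot be told apart.

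The 5852 exon entries were summed to 5648 genes, and 5 counter entries (reads outside genes, 6.03% to 8.36% in the 4 libraries compared) were left out of library sizes. Genes passing edgeR's filterByExpr (minimum count 10), 5544, were fitted in 8 groups with TMM scaling and tested with edgeR 4.0.16 quasi-likelihood in R 4.3.3. Benjamini-Hochberg adjustment ran over all tested genes, with a threshold of 0.05. Log2 values are fitted fold changes, and SE was derived from the log2 value and its F statistic. DESeq2 1.42.0 and other settings were alternatives. The scripts were tested on simulated counts. Symbols came from the RefSeq gene table, which matched 5589 genes and named 4484. The 6 libraries of the oxygen experiment were not used.

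The comparison, the 31 gene lists and the tests were chosen with earlier results of these data known. Genes named are the 12 largest rises and falls (mean log2 CPM of at least 4, groups not overlapping), the 3 lowest adjusted p of each list with 3 or more calls one way, all regulators and hypoxic genes, the deleted loci with neighbours, and the 10 lowest interaction p. The genes of the GAL, meiosis and metal groups, other list members, the genes called both with and without CoCl2, and the comparisons of rox2-/- with WT were chosen after their values were seen. Counts per library and intervals from a count of 0 cover counting error only.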

Additional observations from a re-analysis of the deposited data

How the results depend on the processing

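Relative to rox1-/- with CoCl2, the double deletion had 244 called genes, and the count was 553 with scaling by total counts (486 higher, 67 lower, 87.9% higher against 67.2%), 947 with DESeq2 (527 higher, 420 lower; 55.6% higher) and 0 in a fit of the 4 libraries alone (0 higher, 0 lower). The cause of these changes was not tested. Leaving out 1 library gave 0 to 1220 called (0 to 555 higher, 0 to 665 lower). DESeq2 size factors (240), no filter on low counts (245) and a correction for coding length (233) stayed near 244.

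The replicate numbers are shared by the strains, but no label says that a number marks a shared culture or day, and the comparison holds 2 pairs. Across genes, the deviations of same-numbered libraries correlated at 0.244 between the double deletion and rox1-/- with CoCl2, and at 0.244 to 0.732 over the 6 pairs of groups with CoCl2, a hint from the data and not from the design. A fit with a replicate block called 753 genes (408 higher, 345 lower; 54.2% higher), all 244 among them, and 75 ribosome biogenesis genes as lower, against 2 without it; without CoCl2 the block called 31.

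Of the other comparisons, the response to CoCl2 in the double deletion (321 called) gave 686 with DESeq2, 77 in a fit of the groups compared alone, and 40 to 390 with 1 library left out. The response in rox1-/- (447) gave 735, 52 and 126 to 930. The difference between the responses (0) gave 2 with DESeq2 and 0 to 60 with 1 library left out. Without CoCl2 (18) the counts were 359 with DESeq2, 262 in the groups alone and 0 to 506. The double deletion against WT with CoCl2 (278) gave 170 with total counts, 477 with DESeq2, 4 in the groups alone and 51 to 252, and rox1-/- against WT (974) gave 98 in the groups alone and 94 to 1347. The response in WT (2607) ranged over 1470 to 2721. Of genes that rose in WT, 136 were called higher in the double deletion, and 370 with total counts, 391 with DESeq2, 317 with the replicate block and 0 to 434 with 1 library left out; their median of 0.35 was 0.56 with total counts and 0.19 to 0.47. Of genes that fell in WT, 20 were called lower, and 171 with DESeq2, 161 with the block and 0 to 290; their median ranged over -0.49 to -0.20. The share of called genes with the same direction without CoCl2 ranged over 92.5% to 94.4% for rises, against 100% with all libraries, and 88.3% to 100% for falls. Fits that called no gene in a direction gave no share and are not in these ranges. Of the 244 genes, 242 were found with the same sign with the length correction and 243 in the fit of the 4 libraries alone. All 244 were under the other settings run. These counts do not tell a gene left out of a fit from one that changed sign. The length correction leaves out genes without a known length, and the fit of the 4 libraries filters genes anew. With scaling by total counts the list medians changed sign for mating (-0.24, then 0.04), regulators (-0.19, then 0.03), hypoxic genes (-0.09, then 0.17), hexose transport (-0.14, then 0.14), purine synthesis (-0.24, then 0.02) and cell cycle (-0.07, then 0.20), and the cell wall median became 0. With 1 of the 4 libraries left out, medians reached -0.02 for ergosterol (0.15 with all), -0.07 for metal transport (0.20) and 0.06 for hexose transport.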

Other observations

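Values chosen after they were seen include the galactose genes. GAL1, galactokinase, had 85.3 and 59.7 CPM in the double deletion with CoCl2, against 20.8 and 16.1 CPM in rox1-/- with CoCl2 (log2 1.98, adjusted p = 0.0419). GAL7, the uridylyltransferase next to it, had 36.3 and 24 CPM in the double deletion, against 9.27 and 12.7 CPM in rox1-/- (log2 1.45, adjusted p = 0.0294). GAL10, the epimerase, had 131 and 85.4 CPM in the double deletion, against 58 and 37.8 CPM in rox1-/- (log2 1.18, adjusted p = 0.0461). PGM1, the second phosphoglucomutase, had 208 and 146 CPM in the double deletion, against 71.7 and 44 CPM in rox1-/- (log2 1.62, adjusted p = 0.0303). The groups of all 4 genes were apart, in glucose medium.

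RGI2, a gene of respiratory growth, had the largest fitted rise, with 80.5 and 8.75 CPM in the double deletion with CoCl2, against 1.44 and 3.32 CPM in rox1-/- with CoCl2 (log2 4.22, SE 1.09, adjusted p = 0.0457), and the double deletion libraries differed from each other more than the lower of them did from rox1-/-. MEI5 and NDT80, both genes of meiosis, were called in opposite directions (log2 2.64 and -1.43, adjusted p = 0.0413 for each). ZRC1, a vacuolar zinc and cobalt transporter gene, rose by 1.87 on the log2 scale (adjusted p = 0.0399), and ZRT2, a low-affinity zinc importer gene, fell by 0.83 (adjusted p = 0.0478). Among genes with a known place, 5.52% of 163 rising genes and 10.1% of 79 falling genes lay within 20 genes of a chromosome end, against 6.83% of all 5488.

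The lists not yet described had between 0 and 2 calls each between the strains with CoCl2 (4.4% of all genes called; metal transport 10.5%, sulfur and methionine 7.69%, multidrug export 6.25%, iron 5.26%). In metal transport 1 rose and 1 fell of 19 (median 0.20), the ZRC1 and ZRT2 above, and in meiosis and sporulation 1 and 1 of 45 (median 0.19). Of 26 genes of sulfur and methionine metabolism, MET30, a ubiquitin ligase subunit (log2 -0.90), and SEO1, a permease (-2.47), fell, with a median of -0.41. LEU1 was the 1 faller of 19 iron and iron-sulfur genes (median 0.13), RTA1 of 16 multidrug export genes (-1.54, median -0.39) and SCW10 of 39 cell wall genes (-1.06, median -0.25). PUP3, a core proteasome subunit, was the 1 riser of 36 proteasome genes (0.78), of which 34 had a positive difference (median 0.27). PUT2, of proline breakdown, was the 1 riser of 22 genes of arginine, proline and urea breakdown (1.12, median 0.14). With edgeR 0 were called among 11 haem genes (median 0.47, 10 positive, 6 at an unadjusted p under 0.05, DESeq2 1 higher), 14 fatty acid and inositol genes (0.21, 3, DESeq2 2 higher) and 6 hexose transporters (-0.14, 2, DESeq2 1 lower). The same held for 31 oxidative stress genes (median 0.17, 7 at an unadjusted p under 0.05, DESeq2 3 higher and 2 lower), 17 purine genes (-0.24, 5, DESeq2 3 lower), 14 phosphate genes (0.23, 3, DESeq2 2 higher) and 48 cell cycle genes (-0.07, 10, DESeq2 3 lower).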
